A study of Mus musculus with 4 samples.

Results

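The regulatory landscape of Grem1 and Fmn1 was examined as the accessible regions, found by ATAC-seq in mouse limb buds, whose centres lay within the stretch of chromosome 2 that holds both genes and 50 kb on either side. It spanned chr2:113117893-113648803 (mm9), a length of 530911 bp. Of the 42613 regions listed for E9.5 forelimb buds, 12 lay in this landscape, and of the 46765 regions listed for E10.5 forelimb buds, 27 did. The rule used position only, so the number, the score and the stage of the regions were not part of it. Nearest to its edges, the outermost E10.5 region inside on the Grem1 side had its centre 0.851 kb within the edge, and the next E10.5 region lay 15.5 kb beyond it.

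The embryos were wild-type mice of the NMRI strain, and each stage had 2 biological replicates, with both forelimbs of a single embryo in each. E9.5 is the name of the earlier stage in the titles, while the protocol gives E9.75, and its samples kept an adjoining piece of trunk. The later stage is E10.5, for which the protocol gives forelimb buds without naming trunk, although a tissue label also lists hindlimb buds. Embryonic stage and the presence of trunk tissue cannot be told apart in any comparison between the lists. ATAC-seq uses a transposase that inserts sequencing adapters into open chromatin, so a region in a list marks a stretch of accessible DNA in some share of the cells. In such bulk tissue, more open chromatin per cell and more cells of a type with open chromatin cannot be told apart.

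Grem1 encodes gremlin 1, a secreted antagonist of BMP ligands of the DAN family. In limb bud mesenchyme it keeps BMP activity low and so maintains the feedback loop between SHH in the posterior mesenchyme and FGFs in the apical ectodermal ridge (AER). Fmn1 encodes formin 1, which nucleates and elongates actin filaments. The cis-regulatory elements that drive Grem1 expression in limb buds are known to lie largely within the neighbouring Fmn1 gene and in the DNA between both genes, and deletions there cause limb malformations through loss of Grem1 expression.

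In the GENCODE annotation, Fmn1 (ENSMUSG00000044042.11) lay on the plus strand at chr2:113167893-113556924, a length of 389 kb with 19 exons in its longest transcript. Grem1 (ENSMUSG00000074934.3) lay on the minus strand at chr2:113586321-113598803, a length of 12.48 kb, so that both genes end towards each other across a gap of 29.4 kb. The distance between the Fmn1 start and the Grem1 start was 431 kb. Beside them, the landscape held all of Tmco5b, the 3′ part of Scg5 (secretogranin 5) and several non-coding genes inside Fmn1. Throughout, the position of a region is its distance from the Grem1 start to the centre of the region, and, unless said otherwise, towards Fmn1.

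The sequences of the elements on which the results turn are shown first, read from mm9. Capitals mark matches, on either strand, to short motifs of factors known from limb buds: GGCGCC (a GC-rich SMAD element), TGACAG (the core bound by PKNOX, MEIS and TGIF proteins), CATCTG (an E-box of the kind bound by HAND2), ATCAAAG (LEF/TCF) and TGATTTAT (PBX-HOX). No 2 matches overlapped in any sequence shown. The first 2 sequences are the 250 bp upstream of both gene starts, because the highest-scoring regions of the landscape at E9.5 lay there.
Grem1 promoter, chr2:113598804-113599053, minus strand: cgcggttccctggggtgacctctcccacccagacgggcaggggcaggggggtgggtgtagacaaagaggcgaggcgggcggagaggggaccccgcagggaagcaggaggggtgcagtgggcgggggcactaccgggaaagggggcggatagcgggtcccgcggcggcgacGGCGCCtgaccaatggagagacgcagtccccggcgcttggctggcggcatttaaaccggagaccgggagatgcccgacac
Fmn1 promoter, chr2:113167643-113167892, plus strand: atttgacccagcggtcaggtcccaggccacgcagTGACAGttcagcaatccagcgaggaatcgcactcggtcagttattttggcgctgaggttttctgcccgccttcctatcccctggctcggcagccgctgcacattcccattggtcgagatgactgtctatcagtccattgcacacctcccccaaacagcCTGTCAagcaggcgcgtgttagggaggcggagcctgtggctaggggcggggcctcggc
The next 4 are 300 bp around the centres of distal regions that were in both lists and had a higher score rank at E10.5. They are the region between both genes, at its E9.5 centre, and the 3 highest-scoring shared distal regions of the E10.5 list, at their E10.5 centres. The motifs in a window depend on which centre is used.
Shared region at 34.2 kb, between Fmn1 and Grem1, chr2:113564602-113564901, plus strand: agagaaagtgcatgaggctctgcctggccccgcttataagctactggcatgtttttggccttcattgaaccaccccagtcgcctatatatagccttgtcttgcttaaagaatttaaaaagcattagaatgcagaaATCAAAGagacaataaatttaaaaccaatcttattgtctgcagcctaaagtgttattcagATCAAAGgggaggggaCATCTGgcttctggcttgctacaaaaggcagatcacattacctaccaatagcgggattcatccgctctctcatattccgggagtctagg
Shared region at 84.0 kb, Fmn1 intron 15, chr2:113514683-113514982, plus strand: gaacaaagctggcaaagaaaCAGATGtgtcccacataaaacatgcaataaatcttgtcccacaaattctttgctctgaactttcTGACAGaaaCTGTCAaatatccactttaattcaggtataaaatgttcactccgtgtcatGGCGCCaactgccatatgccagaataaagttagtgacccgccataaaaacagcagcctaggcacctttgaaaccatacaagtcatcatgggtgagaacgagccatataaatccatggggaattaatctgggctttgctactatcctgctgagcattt
Shared region at 220.1 kb, Fmn1 intron 7, chr2:113378524-113378823, plus strand: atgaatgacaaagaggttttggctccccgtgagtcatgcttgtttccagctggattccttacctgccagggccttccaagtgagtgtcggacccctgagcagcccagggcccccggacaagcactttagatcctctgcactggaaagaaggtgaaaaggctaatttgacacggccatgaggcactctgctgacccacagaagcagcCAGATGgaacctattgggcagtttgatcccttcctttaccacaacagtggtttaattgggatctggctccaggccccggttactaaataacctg
Shared region at 260.4 kb, Fmn1 intron 5, chr2:113338282-113338581, plus strand: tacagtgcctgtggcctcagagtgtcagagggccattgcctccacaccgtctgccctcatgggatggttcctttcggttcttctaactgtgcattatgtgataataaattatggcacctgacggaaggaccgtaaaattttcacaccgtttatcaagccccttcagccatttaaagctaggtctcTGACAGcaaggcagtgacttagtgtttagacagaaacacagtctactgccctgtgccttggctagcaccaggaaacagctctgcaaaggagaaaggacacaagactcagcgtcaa
The following 3 are the highest-scoring regions listed at E10.5 and not at E9.5, and the last is the single region listed at E9.5 and not at E10.5.
E10.5-specific region at 65.2 kb, Fmn1 intron 17, chr2:113533438-113533737, plus strand: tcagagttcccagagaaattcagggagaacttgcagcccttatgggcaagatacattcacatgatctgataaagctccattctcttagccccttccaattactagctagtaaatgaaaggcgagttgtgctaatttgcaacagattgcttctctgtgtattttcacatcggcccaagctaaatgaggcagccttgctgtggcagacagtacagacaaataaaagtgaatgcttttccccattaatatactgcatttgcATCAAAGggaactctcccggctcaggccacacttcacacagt
E10.5-specific region at 177.0 kb, Fmn1 intron 8, chr2:113421634-113421933, plus strand: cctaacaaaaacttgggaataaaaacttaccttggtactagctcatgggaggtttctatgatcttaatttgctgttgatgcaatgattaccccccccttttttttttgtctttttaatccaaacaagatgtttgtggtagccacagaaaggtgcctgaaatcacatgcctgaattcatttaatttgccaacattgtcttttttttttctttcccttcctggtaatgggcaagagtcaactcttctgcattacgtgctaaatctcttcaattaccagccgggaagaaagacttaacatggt
E10.5-specific region at 182.6 kb, Fmn1 intron 8, chr2:113416047-113416346, plus strand: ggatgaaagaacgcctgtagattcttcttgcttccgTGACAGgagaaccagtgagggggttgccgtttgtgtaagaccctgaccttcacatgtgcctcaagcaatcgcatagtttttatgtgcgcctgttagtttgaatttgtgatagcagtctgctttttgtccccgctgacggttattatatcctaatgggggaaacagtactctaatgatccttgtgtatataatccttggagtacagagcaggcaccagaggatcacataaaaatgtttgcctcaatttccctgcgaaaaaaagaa
E9.5-specific region at 343.2 kb, Fmn1 intron 2, chr2:113255494-113255793, plus strand: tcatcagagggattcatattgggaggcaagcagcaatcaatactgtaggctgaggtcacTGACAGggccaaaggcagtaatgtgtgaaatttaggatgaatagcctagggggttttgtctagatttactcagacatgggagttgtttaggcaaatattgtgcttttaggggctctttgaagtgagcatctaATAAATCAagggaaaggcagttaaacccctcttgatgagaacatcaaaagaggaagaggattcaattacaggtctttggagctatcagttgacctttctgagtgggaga

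The landscape held 27 accessible regions at E10.5 and 12 at E9.5. Exact Poisson intervals, which cover counting error only and treat regions as independent, ran from 17.8 to 39.3 and from 6.20 to 20.96. Per megabase this gave 50.9 regions at E10.5 and 22.6 at E9.5, while all of chromosome 2 held 22.0 and 20.4. The landscape was therefore about as dense as its chromosome at E9.5 and denser than its chromosome at E10.5. The regions covered 32.4 kb (6.11% of the landscape) at E10.5 but 16.2 kb (3.05%) at E9.5. Both stages have 1 combined list with no values per replicate, so no difference between them carries a replicate error, and none was tested.

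Most of the additional regions lay inside Fmn1, which held 20 regions at E10.5 and 9 at E9.5. Fmn1 also makes up 389 kb of the 531 kb of the landscape. Its 51.4 regions per megabase at E10.5 and 23.1 at E9.5 were close to the 50.9 and 22.6 of the whole landscape. The 29.4 kb between the genes held 1 region at either stage, and so did the Grem1 gene itself. The flank beyond the Fmn1 start held 3 regions at E10.5, among them the one at the start, and 1 at E9.5, while the flank on the Grem1 side held 2 and 0. Neighbouring regions were spaced by a median of 36.4 kb at E9.5 and 18.8 kb at E10.5. The longest interval at E9.5 was 79.0 kb, from 162.7 to 83.7 kb, in Fmn1, whereas no interval exceeded 37.6 kb at E10.5.

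**Figure D1:**
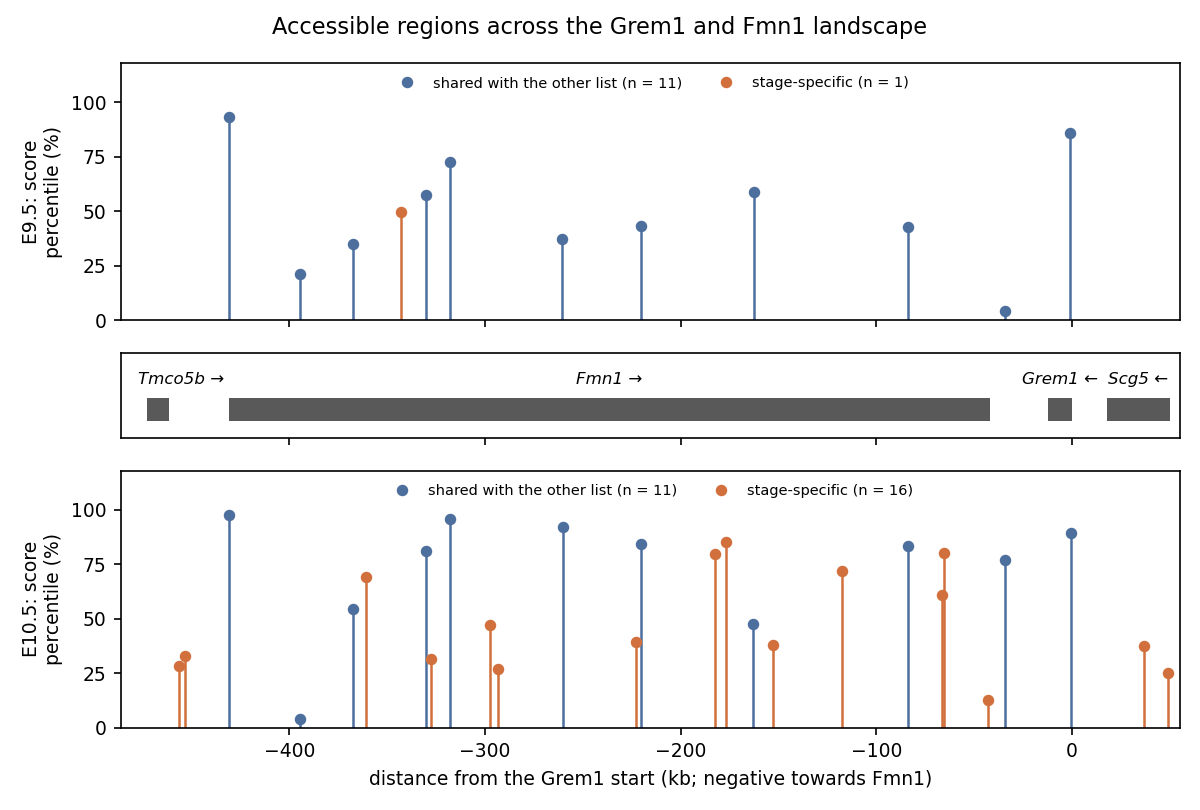
Score percentile of every accessible region (vertical axis, percent of the regions of the same list) against the distance of its centre from the Grem1 start (horizontal axis, kb) at E9.5 (top) and E10.5 (bottom), with the genes drawn to scale in the middle and arrows for their strand. Blue points are regions present in both lists (11 at either stage) and orange points are stage-specific regions (1 at E9.5, 16 at E10.5). At E10.5 the stage-specific regions lie mostly within Fmn1, which also makes up most of the landscape.

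Regions that met a region of the other stage over 1 bp or more counted as shared, and the rest counted as stage-specific. At E9.5, 11 of the 12 regions of the landscape were shared and 1 was stage-specific (8.33%, exact 95% binomial interval 0.211 to 38.5%). Over the whole E9.5 list, 29.9% were stage-specific, a value inside that interval. At E10.5, 11 of the 27 regions were shared and 16 were stage-specific (59.3%, 38.8 to 77.6%), against 35.0% of the whole E10.5 list. Nearly the whole E9.5 set was thus also in the E10.5 list, and the E10.5 set held most of its regions in addition.

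Stage-specific regions were more often distal, that is, with a centre more than 2.5 kb from any start of a protein-coding gene, and this held for all 16 E10.5-specific regions of the landscape. Promoter-proximal regions numbered 4 of the 12 (33.3%) in the E9.5 list and 4 of the 27 (14.8%) in the E10.5 list, against 38.3% and 32.9% of all regions. Among distal regions alone, 16 of 23 were E10.5-specific (69.6%, 47.1 to 86.8%), and the corresponding share of all distal E10.5 regions was 49.6%, which lies within the interval. At E9.5, 1 of 8 distal regions was stage-specific (12.5%, 0.316 to 52.7%), against 40.3% of all distal E9.5 regions. The E10.5 share of the list thus lay below the interval of the landscape when all regions were counted, and inside it when only distal regions were.

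**Figure D2:**
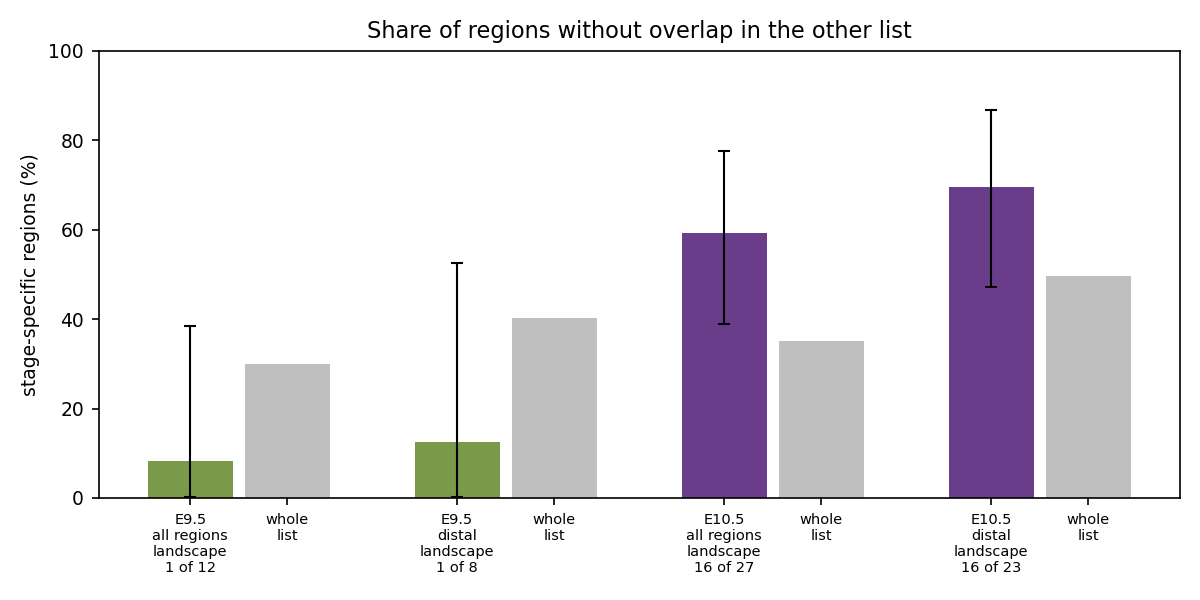
Percentage of regions without overlap in the other list (vertical axis, percent), in the landscape (coloured bars, with exact 95% binomial intervals for counting error) and in the whole list of the stage (grey bars), for all regions and for distal regions. The E10.5 bars of the landscape reach 59.3% and 69.6%, and the grey bars beside them 35.0% and 49.6%.

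The score of a region grows with sequencing depth, so levels were compared between stages only as percentiles within a list. In the upper 50% of scores, 6 of 15 landscape regions were E10.5-specific (40.0%, 16.3 to 67.7%), against 18.1% of the same part of the list. That value lies inside the interval. None of 5 was E9.5-specific (exact upper limit 52.2%), against 10.8%. The 6 E10.5-specific regions were all distal, while the values of the lists also count promoter-proximal regions. The 16 E10.5-specific regions had a median percentile of 38.6, with a range from 13.0 to 85.3, and the median of all E10.5-specific regions was 30.6. They were therefore mainly of low to middle rank, and a few ranked high.

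The 3 highest-scoring E10.5-specific regions all lay in introns of Fmn1. The first, at 177.0 kb (chr2:113420948-113422619) in intron 8, scored 961.92 (percentile 85.3), and its nearest E9.5 region was 12.7 kb away. The second, at 65.2 kb (chr2:113533035-113534139) in intron 17, scored 737.02 (percentile 80.1). Of its bases, 150 bp lay in annotated exons, of Fmn1 or of a non-coding gene antisense to it. The last of them, at 182.6 kb (chr2:113415271-113417122), also in intron 8, scored 727.17 (percentile 79.8). The first and last lay 5.59 kb apart, so intron 8 held a pair of high-ranking regions at E10.5 and none at E9.5. The E10.5-specific region farthest from any E9.5 region lay at 117.7 kb (chr2:113480664-113481638) in intron 15, within the longest interval of the E9.5 list, with a gap of 33.0 kb and a score of 514.75 (percentile 72.1). At the other extreme, the region at 222.8 kb ended 1.31 kb from an E9.5 region.

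The single E9.5-specific region lay at 343.2 kb (chr2:113255163-113256124) in intron 2 of Fmn1 and scored 258.43 (percentile 49.8). The nearest E10.5 region was 11.9 kb away. Its sequence, shown above, was the only landscape window with the PBX-HOX letters TGATTTAT, and it also held TGACAG.

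The regions present at both stages differed in rank between the lists. Of 11 shared pairs, 9 had the higher percentile at E10.5 (81.8%), against 50.3% of all shared E9.5 regions. The median of the E10.5 minus the E9.5 percentile was 23.2 points in the landscape, with a range from -16.8 to 72.5, and 0.087 points over all shared regions. In 6 of the 11 pairs the E10.5 percentile was at least 20 points higher, which was the case for 14.3% of all shared regions. The regions that the landscape kept were thus mostly of higher rank at E10.5, while over the lists higher and lower ranks were about as frequent. The pairs are few, and no interval was computed for these counts or for those of the distal pairs.

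Some promoter-proximal pairs were also higher at E10.5, but the difference was larger in the distal pairs. In 6 of 7 the E10.5 percentile was higher (85.7%, against 58.2% of all shared distal regions), with a median difference of 40.6 points, against 4.04 points for all of them. In 5 of 7 it was at least 20 points higher, against 24.5% of all shared distal regions. At E9.5 the 7 distal regions ranked near the middle of the list, with a median percentile of 42.7, close to the 43.1 of all shared distal regions. At E10.5 their median was 81.2, against 47.8 for all shared distal regions.

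The largest difference was at 34.2 kb, in the region between both genes. It scored 90.79 at E9.5 (chr2:113564372-113565131, percentile 4.32), close to the lowest scores of that list, and 632.2 at E10.5 (chr2:113564056-113565245, percentile 76.8). It was the only accessible region between the 3′ ends of Fmn1 and Grem1 at either stage, and it measured 760 bp in the E9.5 list and 1190 bp in the E10.5 list. The 300 bp around its E9.5 centre held 2 LEF/TCF matches and 1 E-box, and those around its E10.5 centre held 1 LEF/TCF match and 1 E-box.

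The region at 260.4 kb, in intron 5 of Fmn1, had the highest E10.5 score of all distal regions of the landscape. It scored 183.57 at E9.5 (chr2:113337829-113338893, percentile 37.4) and 1439.72 at E10.5 (chr2:113337512-113339350, percentile 92.2). It overlapped 267 bp of annotated Fmn1 exon sequence. The region at 220.1 kb, in intron 7, followed with 212.77 at E9.5 (chr2:113377747-113379003, percentile 43.3) and 917.3 at E10.5 (chr2:113377591-113379755, percentile 84.4). The region at 84.0 kb, in intron 15, scored 209.01 at E9.5 (chr2:113514593-113515599, percentile 42.7) and 864.36 at E10.5 (chr2:113514040-113515624, percentile 83.3). These 3 were thus of middle rank at E9.5 and above the 80th percentile at E10.5. Their windows shown above, at the E10.5 centres, did not all hold the same motif. That at 84.0 kb held the GC-rich SMAD element, the E-box and a pair of TGACAG matches. That at 220.1 kb held the E-box, and that at 260.4 kb held TGACAG. At their E9.5 centres, the windows at 84.0 kb and 220.1 kb held no motif match, and that at 260.4 kb held TGACAG.

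Of the 3 highest-scoring shared distal regions at E9.5, that at 220.1 kb was also among the 3 of E10.5, and the other two were not. That at 162.9 kb, in intron 12, scored 358.98 at E9.5 (chr2:113435359-113436826, percentile 58.9) and 224.75 at E10.5 (chr2:113435403-113436414, percentile 47.4). It was the only distal pair with the lower percentile at E10.5. That at 330.2 kb, in intron 2, scored 342.57 at E9.5 (chr2:113267762-113269040, percentile 57.7) and 773.88 at E10.5 (chr2:113268004-113269102, percentile 81.2). The remaining distal pair, at 367.5 kb in the same intron, had a percentile of 34.9 at E9.5 that became 54.6 at E10.5. The order of the distal elements by score was therefore not the same at both stages.

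The distal pairs also differed in width. In 5 of 7 the E10.5 region was the wider one, by up to 908 bp at 220.1 kb, with a median difference of 430 bp over all 7. Across all shared distal regions the median of the E10.5 minus the E9.5 width was -25 bp, with 6803 of 15693 wider at E10.5. The 2 that were narrower at E10.5 were those at 162.9 kb and 330.2 kb.

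**Figure D3:**
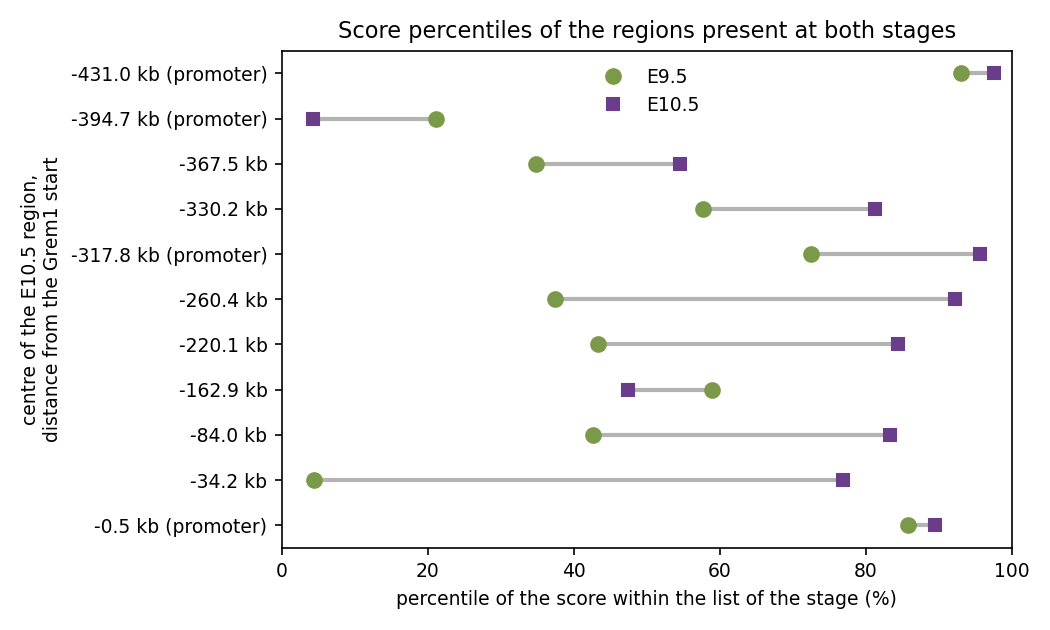
Percentile of the score within its list (horizontal axis, percent) at E9.5 (green circles) and E10.5 (purple squares) for the 11 regions present at both stages, each on a line of its own and named by the distance of its E10.5 centre from the Grem1 start in kb (negative towards Fmn1). In 9 of 11 the square lies to the right of the circle, most in the region between both genes (4.32 and 76.8).

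The starts of both genes were accessible at both stages, with smaller differences. They already ranked high at E9.5, which left less room for a higher percentile than in the distal pairs. The region over the Grem1 start scored 1350.3 at E9.5 (chr2:113596165-113599613, percentile 85.8) and 1216.81 at E10.5 (chr2:113596988-113599634, percentile 89.5). It was the widest region of the landscape at either stage, 3449 bp and 2647 bp, and reached from upstream of the start into the first intron. The region over the main Fmn1 start scored 2012.38 at E9.5 (chr2:113167053-113168539, percentile 93.1) and 2381.43 at E10.5 (chr2:113167089-113168470, percentile 97.5). The promoters thus differed by 3.70 points (Grem1) and 4.49 points (Fmn1) between the lists. Their sequences differed in composition, with 71.6% GC and 1 GC-rich SMAD element upstream of Grem1, and 60.8% GC and 2 TGACAG matches upstream of Fmn1.

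Fmn1 had further annotated starts. The region at 317.8 kb, over the start of transcript Fmn1-002 and of the antisense non-coding gene Gm13963, scored 685.14 at E9.5 (chr2:113280207-113281693, percentile 72.5) and 1930.82 at E10.5 (chr2:113280184-113281891, percentile 95.6). It was the region with the second-highest E10.5 score of the landscape. The region at 394.7 kb, over exon 2 and the start of Fmn1-008, was the pair with the largest difference in the opposite direction. It scored 129.93 at E9.5 (chr2:113203648-113204808, percentile 21.04) and 87.7 at E10.5 (chr2:113203634-113204498, percentile 4.28). RefSeq promoters (GRCm38.p6) were matched to mm9 by sequence for 1 Grem1 start and 2 Fmn1 starts, and the second Fmn1 start, at chr2 position 113525247, held no region within 2.5 kb in either list. The alternative starts therefore ranged from among the highest to among the lowest ranks at E10.5.

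How far this set the landscape apart was read from its surroundings, from a second signalling gene of the feedback loop and from other long genes. The 500 kb beyond the edge on the Fmn1 side held 4 regions in the E9.5 list and 9 in the E10.5 list, of which 5 were E10.5-specific (55.6%, exact 95% binomial interval 21.2 to 86.3%). The 500 kb beyond the Grem1 side held 5 and 12, of which 7 were E10.5-specific (58.3%, 27.7 to 84.8%). The E10.5-specific shares of the surroundings were thus close to the 59.3% of the landscape. Their densities were lower at both stages, at 8 and 10 regions per megabase at E9.5 and 18.0 and 24.0 at E10.5. Both sides thus also held more regions at E10.5, in a proportion similar to that of the landscape (22.6 and 50.9 per megabase). The landscape of Shh and Lmbr1, whose intron harbours the known limb enhancer of Shh, held 8 E9.5 regions and 13 E10.5 regions over 1021576 bp by the same rule. Of its E10.5 regions 5 were stage-specific (38.5%, 13.9 to 68.4%), an interval that overlaps that of the Grem1 and Fmn1 landscape.

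Among 954 protein-coding genes of at least 200 kb, 615 held more regions at E10.5 than at E9.5 and 201 held fewer, with a median difference of 1. Fmn1 differed by 11 regions, which placed it at percentile 97.6, with 17 genes above it and 12 genes, Fmn1 included, at the same difference. One of these was its paralogue Fmn2, which went from 1 listed region at E9.5 to 12 at E10.5. By regions per 100 kb, Fmn1 stood at percentile 78.4 of these genes in the E9.5 list and at 96.7 in the E10.5 list. By the share of E10.5-specific regions it did not stand apart. The share was 60% in Fmn1, the median was 54.5% among the 264 genes with at least 10 E10.5 regions, and 91 of these genes had a higher share.

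**Figure D4:**
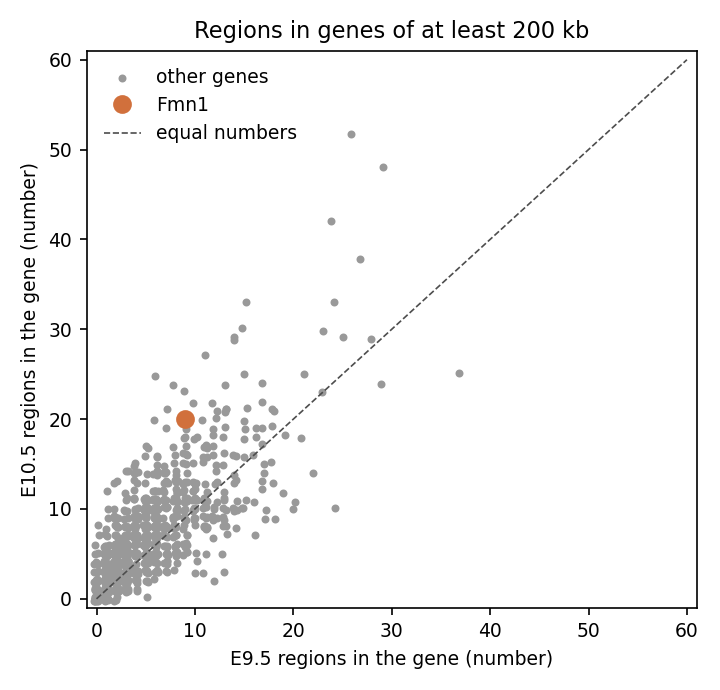
Number of E9.5 regions (horizontal axis) and E10.5 regions (vertical axis) in each protein-coding gene of at least 200 kb. Fmn1 (orange) has 9 and 20, grey points are the other genes, moved at random by under 0.25 so that they do not hide each other, 2 genes with more than 60 regions lie outside the axes, and points above the dashed line held more regions at E10.5.

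In the E10.5 list the base composition of the regions moved with stage specificity. In windows of 150 bp on either side of their centres, the E10.5-specific regions of the landscape had a median GC content of 43.7% and the shared ones of 49.5%. Over the whole E10.5 list the medians were 44.2% and 55.8%, and among distal regions 44.2% and 50.5%. Over the whole E9.5 list the stage-specific and shared medians were 51.8% and 55.8%, and among distal regions both were 50.8%. The landscape as a whole was poorer in GC than the lists, with medians of 48.0% against 54.2% at E9.5 and 44.2% against 50.5% at E10.5. The part of base composition in the number of E10.5-specific regions was not tested.

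Motif letters were counted in the same windows, on both strands. TGACAG was in 5 of 12 E9.5 windows (41.7%) and 10 of 27 E10.5 windows (37.0%), and in 21.5% and 20.8% of all windows of the lists. ATCAAAG was in 2 of 12 (16.7%) and 4 of 27 (14.8%), against 4.10% and 5.11%. CATCTG was in 1 of 12 (8.33%) and 9 of 27 (33.3%), against 23.1% and 25.2%, and in distal windows alone in 1 of 8 (12.5%) and 9 of 23 (39.1%), against 29.5% and 31.5%. By count, TGACAG and ATCAAAG were thus more frequent in the landscape than in the lists at both stages, in small numbers. CATCTG was less frequent than in the list at E9.5 and slightly more frequent at E10.5. In whole regions it was in 7 of 12 and 14 of 27, so its lower share at E9.5 held only for the central windows. No intervals were computed for these counts, so a difference from the lists beyond counting error was not shown. Of the E9.5 windows, 4 with TGACAG and 2 with ATCAAAG belonged to shared regions, so both stages partly counted the same DNA. GGCGCC was in 1 of 12 (8.33%) and 3 of 27 (11.1%), against 13.0% and 11.2% of the lists. All 3 of these E10.5 windows were distal, and 3 of 23 distal windows (13.0%) compared with 4.56% of all distal E10.5 windows, while at E9.5 it was in 0 of 8 distal windows, against 5.91%. In distal windows alone TGACAG was in 3 of 8 (37.5%) and 8 of 23 (34.8%), against 25.4% and 23.8%, and ATCAAAG was in 1 of 8 (12.5%) and 4 of 23 (17.4%), against 5.42% and 6.51%. The letters TGATTTAT were in 1 of 12 and in 0 of 27, against 2.01% and 2.87%.

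No window of the landscape held the SMAD palindrome GTCTAGAC, the GLI letters TGGGTGGTC, the posterior HOX letters TTTACGA, the GATA letters AGATAA or the CTCF consensus. In the lists these were in 0.284%, 0.418%, 0.594%, 10.4% and 5.21% of E9.5 windows and in 0.306%, 0.355%, 0.881%, 9.74% and 5.59% of E10.5 windows. Counting error allows up to 26.5% for 0 of 12 windows and 12.8% for 0 of 27 (upper bounds of exact 95% intervals). In this number of windows, a lower share than in the lists was therefore not detectable. A match describes letters in a window and not binding.

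Accessibility of a gene start was the rule among the genes of the same pathways. The annotation holds 22380 protein-coding genes, and 65.0% of them had a region centred within 2.5 kb of a start at E9.5, against 62.4% at E10.5. Of 29 genes of the SHH, GREM1 and FGF feedback loop, 28 had one at E9.5 and 25 had one at E10.5. The AER ligands Fgf4 and Fgf8 and the HOX gene Hoxa13, which acts in distal limb buds, had one at E9.5 and none at E10.5, and the AER ligand Fgf17 had none in either list. Of 17 BMP antagonists and related genes, 16 had one at E9.5 and 15 had one at E10.5. Nbl1, of the same DAN family as Grem1, had one at E9.5 (score 297.8) and none at E10.5, and Cer1 had none. Of 13 formins, all had one at E9.5 and 12 had one at E10.5, the exception being Fmnl1.

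Markers of the tissues in the samples were present at their starts in a similar way. All 10 forelimb mesenchyme markers and all 10 trunk markers had a region at their start at both stages. Their ranks differed more than their presence. In 7 of 10 trunk markers the percentile was lower at E10.5, with a median difference of -11.8 points and a range from -32.1 to 9.13. Their median percentile was 70.2 at E9.5 against 50.6 at E10.5. Meox1, Myf5, Pax3, Uncx and Foxc2 were among these 7, while Meox2, Pax1 and Osr1 had the higher percentile at E10.5. The percentile was also lower in 14 of 25 feedback loop genes and 9 of 15 BMP antagonists, but in 5 of 12 formins. The share over all gene starts was not counted, so a fall particular to trunk markers was not shown. Of the 10 forelimb mesenchyme markers, 6 had the higher percentile at E10.5 and 4 the lower, with a median difference of 2.81 points. AER markers had one in 5 of 6 genes at E9.5 but 3 of 6 at E10.5, and hindlimb markers in 3 of 3 and 2 of 3, Pitx1 being without one at E10.5. The part of tissue composition in the differences of the landscape was not tested. Of all regions in the lists, Grem1 was the nearest protein-coding gene to 1 at either stage and Fmn1 to 11 E9.5 regions and 22 E10.5 regions. An assignment by distance thus placed most elements of the landscape with Fmn1.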

How the data were processed

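ATAC-seq was carried out on limb buds of wild-type mouse embryos with 2 replicates per stage. The authors aligned reads to mm9 with Bowtie 1.1.0, keeping uniquely placed reads, and called accessible regions with MACS 1.4 (versions per the submitters' processing notes) without a control library and with a fixed shift of reads. They then merged the evidence of both replicates with MSPC. To each merged region the authors gave its best replicate p-value, deposited as a score of 10 times −log10 of that p-value, which depends on depth and was used here only as a rank within a list. Read totals were not used here, so depth is unknown. Pooling before deposit removed the replicate spread, and intervals cover counting error only.

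Regions, mapped to genes by GENCODE vM1 on NCBIM37 (the assembly of mm9, with 0 regions past a chromosome end), were classed by their centre with Python 3.11.15, numpy 2.4.6, scipy 1.17.1 and pysam 0.24.0. Counts of overlaps and intervals were tested on simulated regions. The rule named regions at both starts, the 3 highest-scoring shared distal and stage-specific regions of each list and the pairs with the largest rank difference in each direction; other regions and Fmn2 were named after their values were seen. The landscape, the gene lists and the motifs were chosen with earlier results of these data known. Alternatives varied the overlap, the score filter, the flank, the promoter distance and the motif window.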

Additional observations from a re-analysis of the deposited data

How the results depend on the processing

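Of 83 alternatives, 67 left a value within its spread or within 1.5 times of a count, 16 moved it and 0 reversed it. The spread of a share was its counting interval, which for the E9.5-specific share ran from 0.211 to 38.5%. A change of that share from 8.33% to 20% therefore did not count as moved, and staying within the spread says little about stability. Restricting each list to its higher-scoring 50% left 5 E9.5 regions covering 9170 bp and 15 E10.5 regions in the landscape. Over the alternatives the E10.5-specific share ran from 54.5% (no flank added) to 73.3%, and the E9.5-specific share from 7.14% (100 kb flanks) to 20%. The upper values came from the higher-scoring 50%, where both lists were cut before the overlap, so that a region whose partner ranked low counted as stage-specific. With the overlap taken on the full lists, the shares in the upper 50% of scores were 40.0% and 0%. An alternative added after seeing the data cut the E10.5 list to the size of the E9.5 list and left 26 regions, 16 of them E10.5-specific (61.5%). The other 13 values that moved were motif counts, of 20 alternatives for motif counts. In whole regions in place of the central windows, TGACAG was in 9 of the 12 E9.5 and 17 of the 27 E10.5 regions. CATCTG was in 7 and 14, ATCAAAG in 4 and 10, and AGATAA in 4 and 16. Whole regions are longer than the windows, and their shares over the lists were not counted, so these counts do not show enrichment. No paired analysis was possible because the lists hold no values per replicate, and leaving out a replicate was not run for the same reason.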
